A study of Mus musculus with 7 samples.

Results

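The comparison set the 3 libraries made from EZH2 tumors, lung tumors of mice with the genotype EZH2 overexpression, against the 2 libraries made from EZH2-overexpressing normal lung, called OE normal lung here. EZH2 is the enzyme of Polycomb repressive complex 2 that methylates lysine 27 of histone H3. The same genotype stands on both sides, so the contrast is tumor against lung within that genotype and does not show what EZH2 overexpression does by itself. These are 5 of the 7 RNA-seq libraries of the series, and the other 2, wild type lung, are given only as side-by-side values. All are mouse total RNA from samples whose source is given as lung tissue. The sources used here do not give the promoter or cell type that drives EZH2, or the strain, age and treatment. A growth protocol in the labels has minced tumor nodules in culture while the source field says tissue, and which of them these libraries came from is not stated. Whether the libraries of a group came from different animals is not stated either. By the sex-linked genes given below, the OE normal lungs differed in sex, as did tumor 1 from tumors 2 and 3, so these were different animals. Whether tumors 2 and 3 came from the same animal is not known, and the spread between them may be technical. A p-value here reflects the spread between these samples alone. Of 22447 genes with a symbol, 13848 reached at least 1 FPKM (fragments per kilobase of transcript scaled to the library's mapped fragments, the authors' unit, which is per length and so comparable between genes) in at least 2 of the 5 libraries, and these were tested with limma on log2(FPKM + 1). The description covers 118 functional classes that name 5625 genes found in the files, of which 4143 were tested.

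Lung tumors carry programs of synthesis, secretion and transport beside those of cell identity, and bulk RNA reads all of them at once. A class of housekeeping subunits, such as the ribosome or ATP synthase, is expressed in every cell. A class of ligand receptors, ion channels or developmental regulators is used by some lung cell types and not by others. In bulk RNA, fewer cells of a type and less RNA per cell cannot be told apart.

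Levels are listed in the order tumor 1, 2 and 3, then, after "against", OE normal lung 1 and 2. Ezh2 itself was at 8.48, 23.5 and 22.6 FPKM in tumors 1, 2 and 3 and 10.2 and 11.5 FPKM in OE normal lungs 1 and 2, and at 3.72 and 2.58 FPKM in wild type lung. Tumors 2 and 3 lay above both OE normal lungs and tumor 1 lay below both, and the difference did not pass the test (log2 difference 0.58 with limma SE 0.459 and adjusted p = 0.387). Without tumor 1, the tumor below both OE normal lungs, the log2 difference of Ezh2 was 1.02 (limma adjusted p = 0.0014). That fit called 3556 genes higher and 5484 lower of 13848 tested, so most genes passed in it. The files do not say whether reads of the transgene counted toward this gene.

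The FPKM of all genes summed to between 405166 and 503550 in the 5 libraries, and small RNA genes made up 5.8 to 15.8% of that sum, lowest in OE normal lung 1 and highest in tumor 1. Depth read from the step size of low FPKM values, relative to tumor 1, was 1.2 to 1.87 in the other 4 libraries, from a ratio shared by 60 to 179 of 1633 to 2173 low genes in each. Tumor 1 stood apart from the other tumors: across the tested genes its log2(FPKM + 1) correlated with theirs at 0.897 and 0.896, while tumors 2 and 3 correlated at 0.974, the OE normal lungs at 0.949, and tumor with OE normal lung at 0.714 to 0.797 (across genes, which are not independent). Tumor 1 and OE normal lung 1 had Xist at 0.127 and 0.816 FPKM and Eif2s3y, on the Y chromosome, at 30.7 and 27.4 FPKM, and in the other 3 libraries Xist was at 60.6 FPKM or more and Eif2s3y at 0.0903 FPKM or less. Sex therefore differed within both groups and not along the contrast.

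In this comparison 1218 genes (8.8% of those tested) were higher in tumors and 2860 (20.7%) were lower at a limma adjusted p under 0.05, 29.4% in either direction. In every called gene the 3 tumors lay on 1 side of both OE normal lungs. Where this is said of a called gene below, it therefore adds nothing to the call. Its share over all tested genes is not given here. The log2 difference exceeded 1 for 670 of the higher and 2256 of the lower genes, and its median over all tested genes was -0.10. Higher genes made up 29.9% of the calls, a share that was 16.6% after rescaling to TPM, 21.3% with small RNA genes left out, 38.5% after median-of-ratios scaling and 49.2% after quantile normalization. Those scalings moved the median over all genes to -0.32, -0.22, 0.06 and 0.12, so class medians near 0 have no fixed sign. Of the called genes, 195 higher and 1200 lower ones kept their call in all 5 fits that each left out 1 library, and for each class below that count is given as "stable". Class counts are descriptions to be read against these background shares. A gene that passed the filter only through its values in 1 group had to differ, so the counts are over members that passed and give no support of their own.

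Counting a gene as past 2-fold when a tumor lay more than 1 log2 unit outside both OE normal lungs, tumor 1 had 5.56% of tested genes past it upward and 13.8% downward, tumor 2 had 7.73 and 19.5%, and tumor 3 had 7.37 and 19%. All 3 tumors were past it together for 396 genes upward (2.86%) and 1595 downward (11.5%). Upward, 529 genes were past it in tumors 2 and 3 without tumor 1, 320 in tumor 1 alone, 109 in tumor 2 alone and 79 in tumor 3 alone. Downward, 887 genes were past it in tumors 2 and 3 without tumor 1 and 234 in tumor 1 alone. Among called genes, 388 of 1218 higher ones (31.9%) and 1589 of 2860 lower ones (55.6%) were past 2-fold in each of the 3 tumors.

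A class was taken to hold in a tumor when its share of members past 2-fold in 1 direction was at least 2 times the share over all genes and the class median in that tumor had the same sign, which is a rule of description and no test. By this rule 23 classes were lower and 12 were higher in all 3 tumors. The lower classes covered cytochrome P450 enzymes, ion channels and pumps, mucins, cilia, muscle, growth factor and guidance pathways, several immune classes, and the Hox, Sox and T-box factors. The rule counts members, and summed levels can go the other way. Mucins and trefoil factors summed to 467, 278 and 234 FPKM in tumors 1, 2 and 3 against 158 and 150 FPKM. Potassium channels, ion-pumping ATPases and FGF ligands and receptors also had a higher sum in every tumor than in both OE normal lungs. The other lower classes did not. The higher classes covered V-ATPase subunits, amino acid synthesis, iron and copper handling, keratins and cornified envelope genes, and cathepsins with kallikreins and transmembrane serine proteases. They also covered Eph receptors, ERK feedback genes, epithelial-mesenchymal regulators, the Dlk1-Dio3 locus, lung identity regulators and surfactant genes. The rule can be met by a class with calls in both directions: keratins and desmosome plaque genes were 3 higher and 5 lower of 19 (0 and 0 stable), with 3 past 2-fold upward and 5 downward in tumor 3. Epithelial-mesenchymal regulators had 7 of 19 past 2-fold upward in each tumor, and 2, 8 and 8 downward in tumors 1, 2 and 3. Their median in tumor 3 was 0.07, so their direction there is not fixed. The plot of class medians places tumor 1 closer to 0 than tumors 2 and 3 for most of the lower classes.

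**Figure D1:**
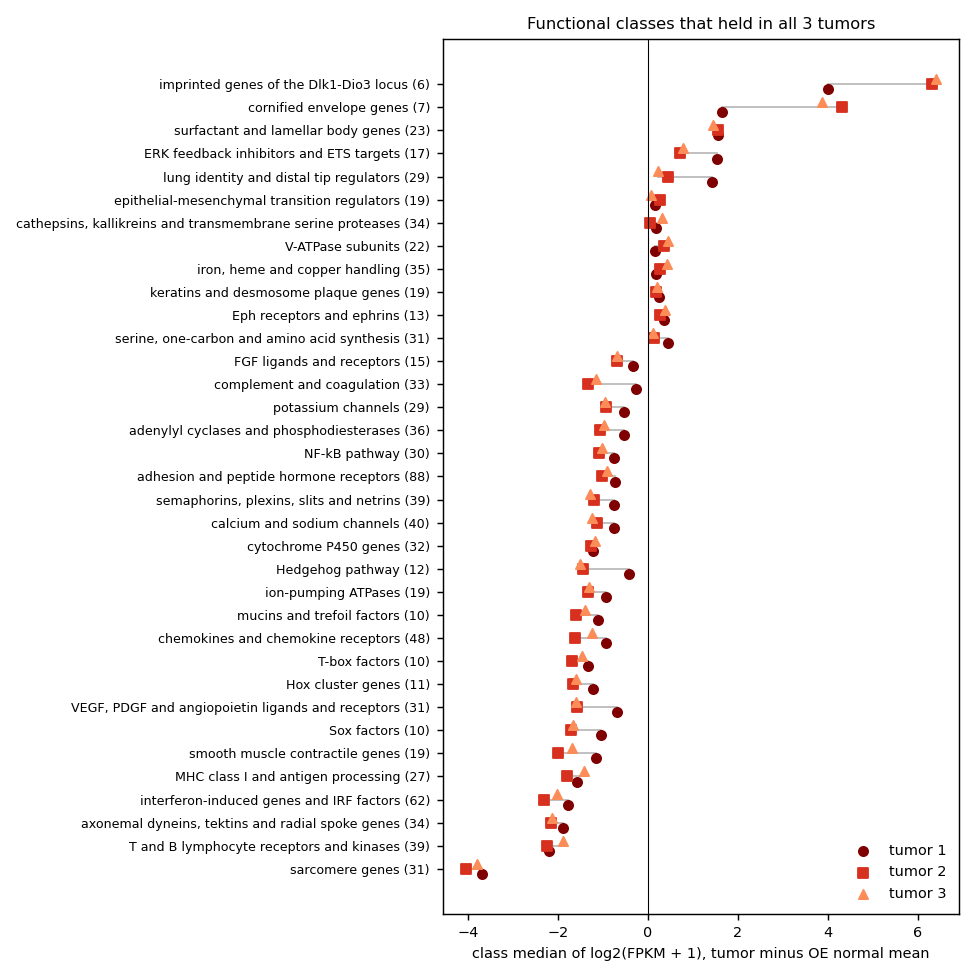
Median log2(FPKM + 1) difference of each class that held in all 3 tumors (rows, with the number of tested members), shown separately for tumor 1, tumor 2 and tumor 3 against the mean of the OE normal lungs. Sarcomere genes lie lowest, at -3.68, -4.04 and -3.80, and the Dlk1-Dio3 genes highest, at 4.01, 6.30 and 6.40.

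**Figure D2:**
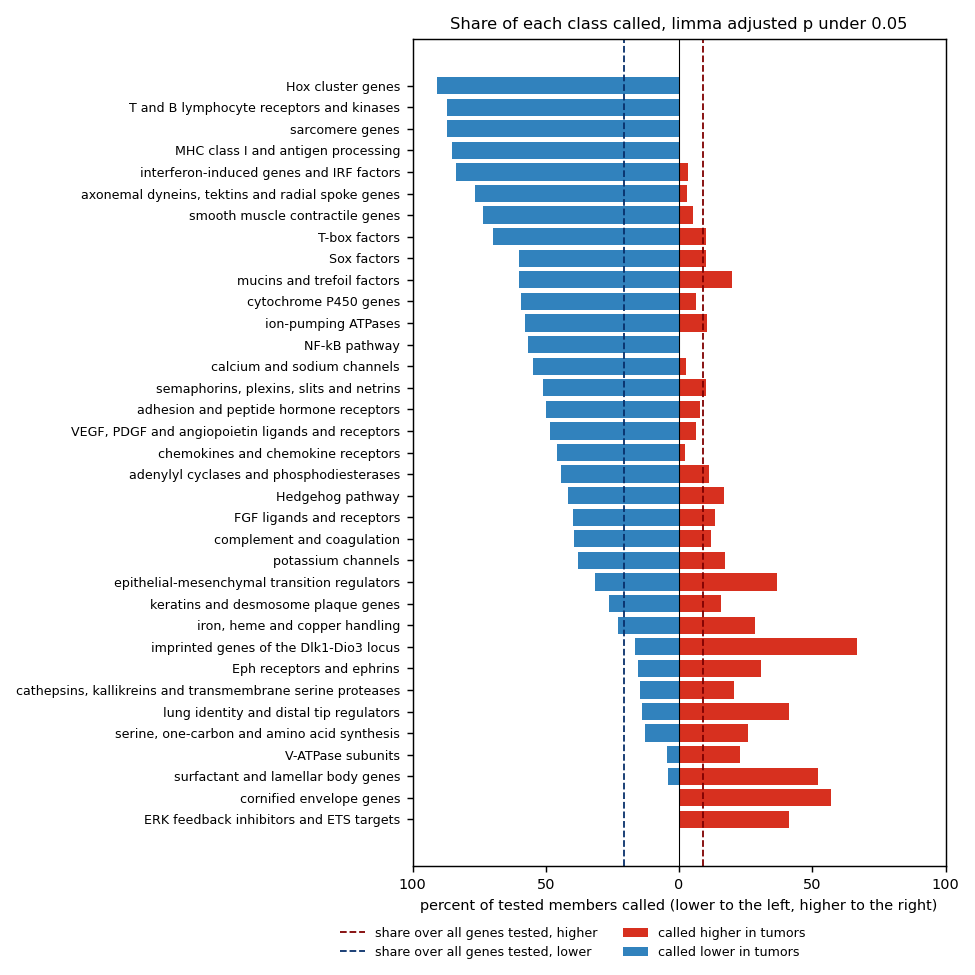
Percent of tested members called lower (bars to the left) or higher (bars to the right) in tumors at a limma adjusted p under 0.05, for the classes that held in all 3 tumors. Dashed lines mark the shares over all genes tested, 20.7% lower and 8.8% higher.

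Cell type markers moved with several of these classes, and their part in any result was not tested. All 15 endothelial markers were lower, their summed level being 198 to 228 FPKM in tumors and 1872 to 2115 FPKM in OE normal lung, and none was listed at 0 in a tumor. All 14 ciliated cell markers were lower (13.02 to 25.1 against 450.4 to 541 FPKM), with Ccdc113, Dnah5 or Dnaic1 listed at 0 in some tumor. All 10 tested heart muscle markers of 11 were lower (3.72 to 8.64 against 798 to 1913 FPKM), and Myl2 was listed at 0 in all 3 tumors. Fibroblast markers were 1 higher and 6 lower of 13, and their sum was 679, 183 and 232 FPKM in tumors 1, 2 and 3 against 1731 and 1879 FPKM. B and plasma cell markers were lower for 10 of 11 (20.7 to 59.01 against 572 to 935 FPKM), with Pax5 at 0 in some tumor, and T and NK cell markers for 10 of 11 tested (9.21 to 19 against 89.8 to 161.5 FPKM), with none at 0. Club cell markers summed to 2536, 13330 and 17590 FPKM in tumors 1, 2 and 3 against 7880 and 6509 FPKM. Bpifa1, a member that was not called, was at 12907 and 15754 FPKM in tumors 2 and 3. By member, the club cell markers were 8 lower and 1 higher of 12. The higher one was Scgb1a1, whose call rests on exact zeros: it was listed at 0 in both OE normal lungs and both wild type lungs and at 2227, 56.3 and 1095 FPKM in tumors, and a listed 0 of this abundant lung gene may be a failed estimate. Alveolar type 2 markers were 7 higher and 0 lower of 11. Sftpc, the most abundant of them in lung, was not called: it was at 35944 FPKM in tumor 1, listed at 0 in tumors 2 and 3, and at 14320.5 and 10578 FPKM in OE normal lung, and whether the listed zeros are failed estimates was not tested. Macrophage markers were 3 higher and 0 lower of 16, and their sum was 2066, 713 and 1336 FPKM in tumors 1, 2 and 3 against 581 and 719 FPKM.

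Most genes of class I antigen processing and of the interferon response were lower in tumors. The class I pathway cuts proteins with the immunoproteasome, pumps the peptides into the endoplasmic reticulum through the TAP transporter and loads them on class I heavy chains with beta-2 microglobulin, and interferons induce most of its genes through elements in their promoters. Of 27 class I and antigen processing genes, all tested, 23 were lower and 0 higher (median -1.54; 7 stable, and 8 without OE normal lung 2), and the per-tumor medians were -1.57, -1.80 and -1.41. Of 69 interferon-induced genes and IRF factors, 62 were tested, and 52 were lower and 2 higher (median -1.996; 31 lower ones and 0 higher ones stable). MHC class II genes did not share this, with 1 higher and 2 lower of 11 (0 and 2 stable) and medians of 0.49, 0.11 and 0.25 in tumors 1, 2 and 3. The T and B cell markers above moved with the class I and interferon genes, and so did T and B lymphocyte receptors and kinases, with 34 of 39 lower (median -2.13; 25 stable). These receptors and kinases summed to 135.7, 72.8 and 91.2 FPKM in tumors 1, 2 and 3 and 518 and 1123 FPKM in OE normal lung. In wild type lung the sum was 281.5 and 166.7 FPKM.

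The promoter letters of these genes are shown because the interferon response element is the feature by which such genes are usually recognized. They were taken from RefSeq windows on build GRCm38.p6, from 250 bases before to 50 after each start, while the FPKM were made on mm9, and no position was carried between builds. The core, GAAA followed by any 2 bases and GAAA again, searched on both strands, was in 22 of 43 interferon-class genes with a window and in 5 of 20 class I genes, against 3.99% of the 27025 genes in the table (3.44% of 32851 windows). Only genes with a core before the start are printed, so that each stretch holds one was fixed by the choice. They are the 4 interferon-class genes with the lowest log2 differences among lower genes with such a core, and B2m and H2-T23. Capitals mark every complete core, which reads TTTC, any 2 bases and TTTC on the other strand, and in Gbp3 a pair of overlapping cores forms 1 capital run.
Ifit3, chr19:34583382-34583441, plus strand: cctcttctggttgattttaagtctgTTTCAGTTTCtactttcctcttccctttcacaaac
Gbp2, chr3:142620579-142620638, plus strand: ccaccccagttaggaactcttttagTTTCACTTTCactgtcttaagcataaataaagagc
Ifit1, chr19:34640779-34640838, plus strand: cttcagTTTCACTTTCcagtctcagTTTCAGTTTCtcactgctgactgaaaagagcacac
Gbp3, chr3:142559980-142560039, plus strand: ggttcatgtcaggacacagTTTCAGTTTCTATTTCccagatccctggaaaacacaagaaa
B2m, chr2:122147523-122147582, plus strand: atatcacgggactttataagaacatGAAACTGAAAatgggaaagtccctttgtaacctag
H2-T23, chr17:36032791-36032850, minus strand: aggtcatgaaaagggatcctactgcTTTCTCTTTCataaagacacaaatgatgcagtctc
A match is a description of letters, not of binding.

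Psmb9 and Tap1 lie head to head, and the 225 bases between their starts are shown because both genes were lower together. Capitals mark the CCAAT box at bases 4 to 8, the only match there among the 5 motifs searched.
Psmb9 and Tap1, chr17:34187331-34187555, plus strand of GRCm38.p6: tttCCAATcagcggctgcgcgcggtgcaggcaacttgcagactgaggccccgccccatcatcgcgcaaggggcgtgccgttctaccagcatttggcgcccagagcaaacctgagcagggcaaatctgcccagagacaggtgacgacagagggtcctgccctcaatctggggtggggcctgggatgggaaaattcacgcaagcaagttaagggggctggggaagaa
The motifs were the interferon core, CCAAT (in 41.1% of all genes, 17 of 43 interferon-class genes and 13 of 20 class I genes), TGACGTCA (2.03%), CCGGAAGT (4.31%) and the RFX X-box (0.796%, and 1 of 30 axonemal genes). Matches of different motifs may overlap. That a motif is not among these letters says nothing of its factor.

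Each step of the pathway was lower in each tumor, and the genes named here as its steps were chosen with their values known. The immunoproteasome subunit gene Psmb10 was at 22.5, 16.5 and 20.7 FPKM in tumors 1, 2 and 3 and 58.2 and 58.5 FPKM in OE normal lungs 1 and 2 (log2 difference -1.52 with limma SE 0.172 and adjusted p = 0.00383). Psmb8 was at 26.6, 27.8 and 36.1 FPKM in tumors against 77.7 and 102 FPKM (log2 difference -1.54 with limma SE 0.206 and adjusted p = 0.00578), and Psmb9 at 12.8, 17.1 and 23.8 FPKM in tumors against 72.3 and 90.8 FPKM (log2 difference -2.16 with limma SE 0.283 and adjusted p = 0.00552). Wild type lung lay below both OE normal lungs, with Psmb10 at 45.3 and 43.5 FPKM, Psmb8 at 51.8 and 35.4 FPKM and Psmb9 at 50.02 and 31.5 FPKM, and for Psmb8 the lower wild type library also lay below tumor 3, as it did for Tap1, with wild type lung at 23.02 and 12.8 FPKM. The calls of Psmb8, Psmb9 and Tap1 rested on OE normal lung 2, since without it the limma adjusted p was 0.0515, 0.0563 and 0.0563. The transporter gene Tap1 was at 7.27, 8.83 and 13.2 FPKM in tumors against 39.5 and 47.4 FPKM (log2 difference -2.08 with limma SE 0.267 and adjusted p = 0.00527) and its partner Tap2 at 17.7, 18.4 and 21.7 FPKM in tumors against 53.5 and 55.7 FPKM (log2 difference -1.46 with limma SE 0.145 and adjusted p = 0.00275). Tapbp, encoding the loading factor tapasin, was at 40.4, 39.5 and 45.1 FPKM in tumors against 104 and 99.7 FPKM (log2 difference -1.27 with limma SE 0.131 and adjusted p = 0.00298). B2m, encoding the shared light chain, was at 448, 363 and 738 FPKM in tumors against 1838 and 2231 FPKM (log2 difference -2.03 with limma SE 0.350 and adjusted p = 0.0123), but without OE normal lung 1 or 2 its limma adjusted p was 0.0762 or 0.103. For all of these genes the 3 tumors lay below both OE normal lungs. Wild type lung had B2m at 1216 and 774 FPKM, the lower value near that of tumor 3. Class I and antigen processing genes summed to 1540, 1439 and 2417 FPKM in tumors 1, 2 and 3 and 5361 and 6371 FPKM in OE normal lung. Their sum in wild type lung was 3775 and 2714 FPKM, so the size of the class difference depends on which lung is used.

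The interferon-induced genes named here were lower in every tumor than in all 4 lung libraries. Ifit3, an antiviral gene of the Ifit family, was at 3.80, 0.822 and 1.68 FPKM in tumors 1, 2 and 3 and 51.4 and 33.2 FPKM in OE normal lungs 1 and 2, and at 18.4 and 22.6 FPKM in wild type lung (log2 difference -3.89 with limma SE 0.456 and adjusted p = 0.00416). Gbp2, encoding a guanylate-binding GTPase, was at 3.97, 2.55 and 4.33 FPKM in tumors against 41.1 and 64.6 FPKM, with wild type lung at 21.1 and 15.1 FPKM (log2 difference -3.53 with limma SE 0.284 and adjusted p = 0.00181). Wild type lung lay below both OE normal lungs for Ifit3 and Gbp2, so the distance from tumor to lung depends on which lung is used. The nonclassical class I gene H2-T24 had a log2 difference of -3.17 and H2-T23 of -1.97, and Ifit1 and Gbp3 of -3.09 and -2.91. Genes of the H2-T, Ifit and Gbp families have near-identical copies, and reads may be split among them. In the NF-kB pathway class 17 of 30 genes were lower and 0 higher (median -0.87; 4 stable), and the adhesion gene Vcam1, an NF-kB target, had a log2 difference of -2.10. Chemokines and their receptors were 22 lower and 1 higher of 48 tested (median -1.37; 7 and 0 stable).

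**Figure D3:**
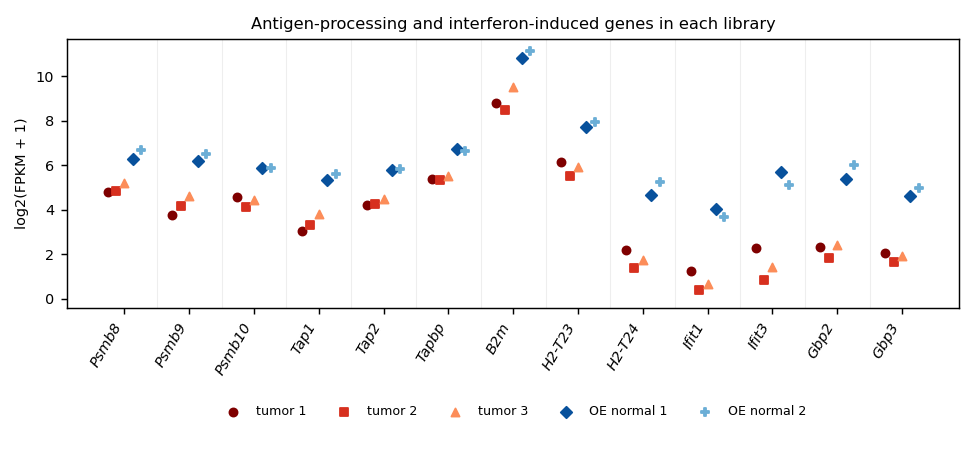
Log2(FPKM + 1) of immunoproteasome, peptide transporter, class I and interferon-induced genes in each of the 3 tumors and 2 OE normal lungs. Every tumor lies below both OE normal lungs for each of the 13 genes.

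Among genes of protein synthesis, cytosolic ribosomal proteins had a higher median in each tumor, and no call in the protein synthesis classes given here was stable. Of 80 cytosolic ribosomal protein genes 77 were tested, 16 were higher and 0 lower (median 0.59; 0 stable), and the count was 7 after rescaling to TPM, 33 after median-of-ratios scaling and 5 after quantile normalization. Medians by tumor were 0.46, 0.66 and 0.66. Mitochondrial ribosomal proteins were 7 higher and 0 lower of 75 (median 0.31; 0 stable), a share of 9.33% that lies near the 8.8% of all genes. Aminoacyl-tRNA synthetases were 7 higher and 0 lower of 37 (median 0.23; 0 stable), and 3 higher and 1 lower with a median of 0.03 after rescaling to TPM. Translation initiation factors were 8 higher and 2 lower of 53 (median 0.18; 0 stable), and 0 higher and 5 lower with a median of -0.04 after rescaling to TPM. Ribosomal protein genes have many processed copies in the genome, and their reads may be split. In the unfolded protein response and ER folding class 7 of 26 were higher and 2 lower (2 stable), and its median of 0.17 became -0.06 after rescaling to TPM. Sel1l, a scaffold of ER-associated degradation, was at 94.2, 96.8 and 81.3 FPKM in tumors 1, 2 and 3 and 28.9 and 25.9 FPKM in OE normal lungs 1 and 2, every tumor above both OE normal lungs (log2 difference 1.69 with limma SE 0.145 and adjusted p = 0.00199).

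Metabolic enzymes changed as particular members and rarely as whole classes. Nucleotide synthesis had 7 higher and 1 lower of 26 (median 0.44; 1 higher and 1 lower stable), a class that held in tumors 1 and 2. Paics, which carries out adjacent steps of purine synthesis, was at 108, 126 and 117 FPKM in tumors 1, 2 and 3 and 42.2 and 43.6 FPKM in OE normal lungs 1 and 2 (log2 difference 1.43 with limma SE 0.134 and adjusted p = 0.00242). Impdh1, an enzyme of guanine nucleotide synthesis, went the other way, at 11.5, 8.68 and 9.39 FPKM in tumors against 60.5 and 46.9 FPKM (log2 difference -2.33 with limma SE 0.191 and adjusted p = 0.00186). Neither gene's groups overlapped. Serine, one-carbon and amino acid synthesis had 8 higher and 4 lower of 31 (2 higher and 1 lower stable), and its median of 0.18 became -0.04 after rescaling to TPM. Arg1, encoding arginase, stood at 27.5, 25.8 and 38.6 FPKM in tumors 1, 2 and 3 and 1.32 and 0.566 FPKM in OE normal lungs 1 and 2 (log2 difference 4.03 with limma SE 0.270 and adjusted p = 0.00157), and Shmt1, which moves a carbon from serine to folate, at 17.2, 29.4 and 28.6 FPKM in tumors against 3.06 and 2.78 FPKM (log2 difference 2.70 with limma SE 0.270 and adjusted p = 0.00281).

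Idh1 and Me1 make NADPH in the cytosol, and both were higher in each tumor. Idh1 was at 167, 294 and 297 FPKM in tumors 1, 2 and 3 and 39.2 and 26.3 FPKM in OE normal lungs 1 and 2 (log2 difference 2.89 with limma SE 0.334 and adjusted p = 0.00399). Me1 was at 95.9, 93.4 and 91.8 FPKM in tumors against 26.7 and 21.1 FPKM (log2 difference 1.94 with limma SE 0.150 and adjusted p = 0.00169). Eno3, the muscle enolase gene, was lower, at 5.60, 3.92 and 3.84 FPKM in tumors against 37.6 and 37.7 FPKM (log2 difference -2.84 with limma SE 0.192 and adjusted p = 0.00157), beside the heart markers given above. The respiratory chain changed little: complex I had 1 higher and 1 lower of 45 (0 higher and 1 lower stable), complexes II to IV had 1 higher and 3 lower of 30 (0 and 3 stable), and ATP synthase was the 1 class of 118 with no member called. The 3 lower genes of complexes II to IV were tissue-restricted cytochrome oxidase subunits. Cox7a1, the muscle form, was at 4.09, 4.60 and 4.51 FPKM in tumors against 29.4 and 51.5 FPKM (log2 difference -2.89 with limma SE 0.261 and adjusted p = 0.00220), and Cox4i2 had a log2 difference of -2.53. Cox8b, the muscle form of another subunit, was listed at 0 in all 3 tumors and at 21.01 and 42.1 FPKM in OE normal lung, so no fold is given. Cox6a2, a further cytochrome oxidase subunit gene, did not share this and was not called. It was at 3.38, 63.4 and 74.4 FPKM in tumors 1, 2 and 3 against 29.7 and 58.7 FPKM.

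Acidification and secretory genes were higher for some members. V-ATPase subunits, which acidify lysosomes and secretory granules, were 5 higher and 1 lower of 22 (median 0.32; 0 higher and 1 lower stable) and held in all 3 tumors. Atp6v1c2 had a log2 difference of 2.58 with a limma adjusted p of 0.00737, which became 0.0589 without OE normal lung 2. Lysosomal hydrolases and membrane proteins were 5 higher and 2 lower of 36 (1 and 1 stable). Npc2, which carries cholesterol out of lysosomes, was at 529.8, 622 and 586 FPKM in tumors 1, 2 and 3 and 206 and 150.3 FPKM in OE normal lungs 1 and 2 (log2 difference 1.71 with limma SE 0.202 and adjusted p = 0.00423). Ids, a lysosomal sulfatase gene, was lower, at 11.9, 9.70 and 9.64 FPKM in tumors against 35.3 and 35.2 FPKM (log2 difference -1.67 with limma SE 0.152 and adjusted p = 0.00223). Rab GTPases, switches of vesicle traffic, were 7 higher and 7 lower of 52 (2 and 2 stable). Among them Rab27a, of secretory granule docking, was at 85.2, 87.6 and 83.7 FPKM in tumors against 17.2 and 14.5 FPKM (log2 difference 2.36 with limma SE 0.134 and adjusted p = 0.00157). Rab15 was at 42.6, 42.6 and 45.03 FPKM in tumors against 7.90 and 5.67 FPKM (log2 difference 2.53 with limma SE 0.170 and adjusted p = 0.00157), and Rab36 had a log2 difference of -2.11.

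Some proteases and secreted products were also higher. Cathepsins, kallikreins and transmembrane serine proteases were 7 higher and 5 lower of 34 tested, of 109 named (median 0.33; 3 and 2 stable). Ctsh, a lysosomal protease that also processes surfactant protein in alveolar type 2 cells, was at 1252, 1092 and 1079.9 FPKM in tumors 1, 2 and 3 and 133 and 119 FPKM in OE normal lungs 1 and 2 (log2 difference 3.17 with limma SE 0.170 and adjusted p = 0.00157). Klk13, a kallikrein with close relatives in a cluster, was at 32.4, 57.3 and 60.2 FPKM in tumors against 1.90 and 1.18 FPKM (log2 difference 4.29 with limma SE 0.323 and adjusted p = 0.00166). The alveolar type 2 markers given above moved the same way as Ctsh. Over all tested genes the largest increases included Kng2, a kininogen that shares reads with its copy Kng1, at 129, 324 and 350.0 FPKM in tumors against 3.74 and 0.141 FPKM (log2 difference 6.72 with limma SE 0.747 and adjusted p = 0.00361). Lce3f, a cornified envelope gene with near-identical neighbours, was at 94.9, 384 and 325 FPKM in tumors against 4.73 and 0.0658 FPKM (log2 difference 6.54 with limma SE 0.932 and adjusted p = 0.00703). For Kng2 and Lce3f OE normal lung 1 lay far above OE normal lung 2, and both lay below every tumor. Lcn2, which binds bacterial siderophores, was at 769, 2879.6 and 4154 FPKM in tumors against 143 and 66.04 FPKM (log2 difference 4.42 with limma SE 0.804 and adjusted p = 0.0145), and without OE normal lung 1 or 2 its limma adjusted p was 0.0693 or 0.118.

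Detoxifying enzymes differed by family. Of 99 cytochrome P450 genes 32 were tested, and 19 were lower and 2 higher (median -1.21; 13 lower and 0 higher stable), with nearly equal medians of -1.23, -1.27 and -1.19 in tumors 1, 2 and 3. Cyp2f2, the club cell P450, was at 33.7, 12.3 and 21.5 FPKM in tumors 1, 2 and 3 and 1619 and 1093 FPKM in OE normal lungs 1 and 2 (log2 difference -5.93 with limma SE 0.441 and adjusted p = 0.00165). Cyp2a5, a gene with close copies, was at 0.203, 0.0225 and 0.513 FPKM in tumors against 187 and 228 FPKM (log2 difference -7.40 with limma SE 0.224 and adjusted p = 0.00117). Most club cell markers were lower too, as given above, though their summed level was not lower in tumors 2 and 3. Aldehyde dehydrogenases, aldo-keto reductases and flavin monooxygenases split, with 8 higher and 15 lower of 46 (4 and 7 stable). Aldh1a1, a retinal dehydrogenase gene, was at 41.99, 19.9 and 24.2 FPKM in tumors against 516 and 519 FPKM (log2 difference -4.20 with limma SE 0.328 and adjusted p = 0.00169). The aldo-keto reductase gene Akr1c19, which has several close relatives, was higher at 51.6, 143 and 121 FPKM in tumors against 4.59 and 2.20 FPKM (log2 difference 4.53 with limma SE 0.511 and adjusted p = 0.00380). Glutathione, sulfo- and glucuronosyltransferases were 5 higher and 7 lower of 29 tested, of 62 named (0 and 4 stable). Hpgd, which inactivates prostaglandins, was at 6.20, 5.02 and 5.18 FPKM in tumors against 391 and 219 FPKM (log2 difference -5.51 with limma SE 0.275 and adjusted p = 0.00157).

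Iron, heme and copper handling had 10 higher and 8 lower of 35 (median 0.31; 1 and 3 stable). Alas2, the erythroid enzyme that starts heme synthesis, had a log2 difference of -4.24 with a limma adjusted p of 0.00159, and all 5 tested erythroid markers of 8 in the files were lower, summing to 47.6 to 178.5 FPKM in tumors and 4090.0 to 5621 FPKM in OE normal lung. Their part in the result was not tested. Mt2, a metallothionein, was at 249, 691 and 648 FPKM in tumors against 36.1 and 19.8 FPKM (log2 difference 4.12 with limma SE 0.537 and adjusted p = 0.00551), and without OE normal lung 2 its limma adjusted p was 0.0538. Prdx2, a peroxide-reducing enzyme gene, was at 211, 245 and 247 FPKM in tumors against 96.8 and 99.6 FPKM (log2 difference 1.24 with limma SE 0.145 and adjusted p = 0.00412).

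Cation channel and ion pump classes had more lower than higher genes, and other transport classes did not all follow. Calcium and sodium channels were 22 lower and 1 higher of 40 tested, of 79 named (median -1.07; 9 lower and 0 higher stable). Scn7a, a sodium channel relative, was at 1.57, 0.171 and 0.450 FPKM in tumors 1, 2 and 3 and 49.04 and 52.3 FPKM in OE normal lungs 1 and 2 (log2 difference -4.98 with limma SE 0.361 and adjusted p = 0.00164), and Scn3b, a sodium channel beta subunit gene, at 0.615, 0.0791 and 0.191 FPKM in tumors against 25.9 and 21.4 FPKM (log2 difference -4.27 with limma SE 0.234 and adjusted p = 0.00157). Potassium channels were 11 lower and 5 higher of 29 tested, of 82 named (median -0.80; 8 and 2 stable). The inward rectifier gene Kcnj15 was higher in each tumor, at 47.9, 62.3 and 75.5 FPKM in tumors against 13.7 and 13.4 FPKM (log2 difference 2.09 with limma SE 0.218 and adjusted p = 0.00306). The leak channel gene Kcnk3 was lower, with a log2 difference of -2.52. Ion-pumping ATPases were 11 lower and 2 higher of 19 (median -1.31; 6 and 0 stable). Chloride channels and anoctamins were 2 higher and 4 lower of 18 (0 and 1 stable), near the background shares, and solute carriers outside the amino acid, glucose and monocarboxylate families were 25 higher and 27 lower of 150 (median 0.01; 2 and 8 stable). Slc26a9, an epithelial chloride transporter gene, was at 111, 91.3 and 78.4 FPKM in tumors against 11.4 and 3.80 FPKM (log2 difference 3.605 with limma SE 0.428 and adjusted p = 0.00429).

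Connexins, which form gap junctions, included members that changed in opposite directions. The class of aquaporins and connexins had 5 higher and 3 lower of 16 tested, of 33 named (4 and 1 stable), and its medians were 0.96 in tumor 1 and -0.65 and -0.54 in tumors 2 and 3. Gjb1 was at 12.5, 26.5 and 29.5 FPKM in tumors 1, 2 and 3 and 1.53 and 0.606 FPKM in OE normal lungs 1 and 2 (log2 difference 3.48 with limma SE 0.429 and adjusted p = 0.00466), and Gja3 at 12.9, 7.99 and 5.84 FPKM in tumors against 0.222 and 0.259 FPKM (log2 difference 2.94 with limma SE 0.325 and adjusted p = 0.00356). The endothelial connexin gene Gja4 had a log2 difference of -2.21, beside the endothelial markers given above. For Gjb1 and Gja3 every tumor lay above both OE normal lungs.

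Among matrix genes the elastic fibre class differed between tumors. Elastic fibre, microfibril and proteoglycan genes were 13 lower and 3 higher of 46 (7 and 1 stable), with medians of 0.03, -1.26 and -0.96 in tumors 1, 2 and 3, and the summed fibroblast markers were also highest among tumors in tumor 1. Collagens were 4 lower and 3 higher of 27 (4 and 1 stable). Col18a1, a basement membrane collagen gene, was at 150.5, 107 and 87.96 FPKM in tumors 1, 2 and 3 and 10.5 and 8.24 FPKM in OE normal lungs 1 and 2 (log2 difference 3.46 with limma SE 0.264 and adjusted p = 0.00168). Vcan, encoding the proteoglycan versican, was at 10.7, 15.3 and 15.7 FPKM in tumors against 1.20 and 0.905 FPKM (log2 difference 2.85 with limma SE 0.223 and adjusted p = 0.00169). Col13a1, Col4a5 and Efemp1 were lower, with log2 differences of -3.12, -1.74 and -3.73. Claudins and other tight junction genes were 6 higher and 7 lower of 27 (1 and 3 stable). Marveld3 was at 14.6, 16.96 and 15.6 FPKM in tumors against 4.74 and 3.78 FPKM (log2 difference 1.67 with limma SE 0.162 and adjusted p = 0.00258). Cldn2, which forms cation pores, was at 232, 34.2 and 43.1 FPKM in tumors against 0.600 and 0.270 FPKM (log2 difference 5.64 with limma SE 0.859 and adjusted p = 0.00850), and without OE normal lung 1 or 2 its limma adjusted p was 0.0660 or 0.0766. Metalloproteinases, ADAM proteases and TIMPs were 22 lower and 5 higher of 46 (median -0.66; 7 and 2 stable), and the macrophage elastase gene Mmp12 was higher, at 19.6, 15.7 and 35.1 FPKM in tumors against 2.36 and 1.71 FPKM (log2 difference 2.94 with limma SE 0.362 and adjusted p = 0.00466), with the macrophage markers as given above.

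Receptors that read peptide and lipid signals were among the largest lower classes. Adhesion and peptide hormone receptors were 44 lower and 7 higher of 88 tested, of 162 named (median -0.88; 21 and 2 stable). Calcrl, the receptor of adrenomedullin, was at 6.63, 5.07 and 6.14 FPKM in tumors 1, 2 and 3 and 199.5 and 152 FPKM in OE normal lungs 1 and 2 (log2 difference -4.66 with limma SE 0.188 and adjusted p = 0.00154), and Ramp2, its partner, at 20.5, 13.6 and 18.04 FPKM in tumors against 341 and 307 FPKM (log2 difference -4.16 with limma SE 0.203 and adjusted p = 0.00157). S1pr1, the sphingosine 1-phosphate receptor, was at 10.1, 6.74 and 7.02 FPKM in tumors against 83.7 and 142 FPKM (log2 difference -3.64 with limma SE 0.294 and adjusted p = 0.00181). These 3 genes are strongly expressed in lung endothelium, whose markers were all lower. Adora1, an adenosine receptor gene, was higher in each tumor, at 46.02, 74.2 and 73.8 FPKM in tumors against 2.68 and 1.24 FPKM (log2 difference 4.48 with limma SE 0.323 and adjusted p = 0.00163). The vessel ligand and receptor class (VEGF, PDGF and angiopoietins, with apelin) was 15 lower and 2 higher of 31 (median -1.52; 8 and 2 stable). Its ligand gene Apln was higher, at 158, 72.99 and 91.2 FPKM in tumors against 6.08 and 9.20 FPKM (log2 difference 3.597 with limma SE 0.374 and adjusted p = 0.00305).

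Semaphorin and second messenger classes had more lower than higher genes, and Eph receptors and ephrins the reverse. Semaphorins, plexins, slits and netrins were 20 lower and 4 higher of 39 (median -1.04; 7 and 0 stable), and Sema3g, an endothelial semaphorin, was at 2.38, 2.13 and 2.34 FPKM in tumors 1, 2 and 3 and 55.98 and 42.1 FPKM in OE normal lungs 1 and 2 (log2 difference -3.92 with limma SE 0.178 and adjusted p = 0.00157). Eph receptors and ephrins were 4 higher and 2 lower of 13 tested (median 0.21; 2 and 1 stable). Epha7 was at 9.21, 9.98 and 8.14 FPKM in tumors against 0.790 and 0.421 FPKM (log2 difference 2.66 with limma SE 0.186 and adjusted p = 0.00159), Efna4 had a log2 difference of 2.21 and Efnb1 of -1.51. Adenylyl cyclases and phosphodiesterases were 16 lower and 4 higher of 36 (median -0.86; 9 and 1 stable). Pde7b, which degrades cyclic AMP, was higher at 17.8, 22.6 and 19.2 FPKM in tumors against 4.58 and 4.36 FPKM (log2 difference 1.93 with limma SE 0.160 and adjusted p = 0.00192), while Pde9a, Pde3a and Adcy8 had log2 differences of -3.36, -2.98 and -2.63. Rgs5, a brake on G protein signalling, was higher at 29.1, 32.3 and 32.2 FPKM in tumors against 6.90 and 4.60 FPKM (log2 difference 2.27 with limma SE 0.192 and adjusted p = 0.00197), and Rgs9 was lower, with a log2 difference of -3.16.

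Cilium genes separated by part. Axonemal dyneins, tektins and radial spoke genes, found in motile cilia, were 26 lower and 1 higher of 34 (median -2.03; 23 and 0 stable). Rsph1 was at 0.970, 0.336 and 0.716 FPKM in tumors 1, 2 and 3 and 20.5 and 29.3 FPKM in OE normal lungs 1 and 2 (log2 difference -3.95 with limma SE 0.255 and adjusted p = 0.00157) and Tekt1 at 0.534, 0.311 and 0.707 FPKM in tumors against 13.6 and 18.3 FPKM (log2 difference -3.48 with limma SE 0.209 and adjusted p = 0.00157). Intraflagellar transport and BBSome genes, used by every cilium, were 10 lower and 0 higher of 35 (median -0.37; 2 stable). Sarcomere genes were 27 lower and 0 higher of 31 (median -3.84; 24 stable), and the atrial myosin gene Myl7 was at 0.366, 0 and 0.115 FPKM in tumors against 174 and 326 FPKM (log2 difference -7.70 with limma SE 0.315 and adjusted p = 0.00154). The ciliated and heart muscle markers moved with these classes as given above.

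The Hox, Sox and T-box families had more lower than higher members. Hox cluster genes reached the filter for 11 of 40, and 10 were lower and 0 higher (median -1.50; 4 stable). Hoxa5, needed for lung patterning, was at 1.72, 0.897 and 1.45 FPKM in tumors 1, 2 and 3 and 14.9 and 14.05 FPKM in OE normal lungs 1 and 2 (log2 difference -2.73 with limma SE 0.208 and adjusted p = 0.00168), and Hoxb5 had a log2 difference of -2.26. Sox factors were 6 lower and 1 higher of 10 tested (4 and 0 stable), with Sox7, Sox17 and Sox2 at log2 differences of -3.54, -2.73 and -2.77. T-box factors were 7 lower and 1 higher of 10 tested (3 and 1 stable). Tbx3 had a log2 difference of -3.57 and Tbx1 of -2.87. The 1 higher T-box gene was Tbx15, at 22.1, 9.52 and 8.65 FPKM in tumors against 0.226 and 0.0843 FPKM (log2 difference 3.53 with limma SE 0.420 and adjusted p = 0.00433). Foxf1, a mesenchymal and endothelial forkhead factor gene, was at 3.68, 2.15 and 1.84 FPKM in tumors against 80.8 and 91.3 FPKM (log2 difference -4.65 with limma SE 0.256 and adjusted p = 0.00157), and Hlf and Zeb1 had log2 differences of -2.63 and -2.40.

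Cebpa, a factor of alveolar epithelial maturation, was at 340.1, 348 and 355 FPKM in tumors 1, 2 and 3 and 42.1 and 26.2 FPKM in OE normal lungs 1 and 2 (log2 difference 3.35 with limma SE 0.226 and adjusted p = 0.00157). Elf5, an ETS factor of distal lung epithelium, was at 80.3, 163 and 169 FPKM in tumors against 10.03 and 5.07 FPKM (log2 difference 4.005 with limma SE 0.434 and adjusted p = 0.00340). The epithelial factor Tfcp2l1 had a log2 difference of 2.09, Foxq1 and Foxp4 of 1.95 and 1.28, and Tgif1 of 1.53. Tumors lay above both OE normal lungs for each of these. Epithelial-mesenchymal transition regulators, a list of both kinds, were 7 higher and 6 lower of 19 (3 and 2 stable), and the splicing regulator Esrp2 and the adhesion gene Epcam, both of the epithelial kind, had log2 differences of 2.15 and 2.39. Lung identity and distal tip regulators were 12 higher and 4 lower of 29 (median 0.70; 8 and 3 stable), surfactant and lamellar body genes 12 higher and 1 lower of 23 (median 1.61; 7 and 1 stable), and ERK feedback inhibitors and ETS targets 7 higher and 0 lower of 17 (median 0.79; 4 stable). The alveolar type 2 markers (7 of 11 higher) moved with the higher genes named here. The endothelial markers (15 of 15 lower) and most called fibroblast markers (6 lower and 1 higher of 13) moved the other way.

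**Figure D4:**
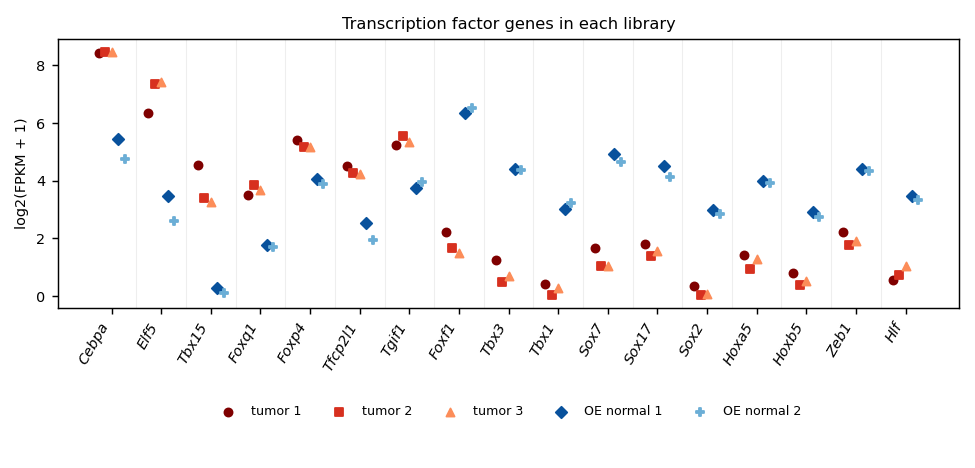
Log2(FPKM + 1) of transcription factor genes in each of the 3 tumors and 2 OE normal lungs. The 7 factors on the left lie higher in every tumor and the 10 on the right lower in every tumor.

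Chromatin regulators, the class of EZH2 itself, showed few calls. PRC2 subunits were 0 higher and 1 lower of 11, PRC1 subunits 3 higher and 2 lower of 20, and histone lysine demethylases 1 higher and 0 lower of 23. Other histone lysine methyltransferases were 4 higher and 2 lower of 40, deacetylases and sirtuins 0 and 1 of 18, and enzymes of DNA methylation 0 and 1 of 13. Each of these shares was below the background of 8.8% higher and 20.7% lower except for the higher PRC1 subunits and methyltransferases, of which 0 were stable. Histone genes had medians of -0.67 in tumor 1 and 0.03 and 0.19 in tumors 2 and 3. SWI/SNF subunits were 1 higher and 2 lower of 22, and the 2 stable ones moved in opposite directions. Brd7, a bromodomain subunit, was at 92.02, 108 and 110.4 FPKM in tumors 1, 2 and 3 and 26.3 and 24.2 FPKM in OE normal lungs 1 and 2 (log2 difference 1.99 with limma SE 0.145 and adjusted p = 0.00165), and Smarca2, an ATPase subunit, at 22.8, 18.05 and 17.7 FPKM in tumors against 53.7 and 53.3 FPKM (log2 difference -1.42 with limma SE 0.160 and adjusted p = 0.00382). The nuclear pore gene Nup210 had a log2 difference of -1.82. Zinc finger genes of the Zfp series were 24 higher and 7 lower of 306 (2 and 4 stable), and the count of higher ones was 97 after quantile normalization. Zfp618 had a log2 difference of 2.14.

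Imprinted genes, expressed from the copy of 1 parent, differed by locus. At the Dlk1-Dio3 locus, where Dlk1 is on the paternal copy and the noncoding RNAs Meg3 and Rian on the maternal one, 4 of 6 tested genes were higher and 1 lower (median 5.57; 0 and 1 stable). Dlk1 was at 199.6, 922 and 978 FPKM in tumors 1, 2 and 3 and 9.94 and 0.293 FPKM in OE normal lungs 1 and 2 (log2 difference 7.23 with limma SE 1.15 and adjusted p = 0.00956). Meg3 was at 334, 1601 and 1554 FPKM in tumors against 25.01 and 5.14 FPKM (log2 difference 6.22 with limma SE 0.947 and adjusted p = 0.00852) and Rian at 155, 726 and 714 FPKM in tumors against 10.3 and 2.17 FPKM (log2 difference 6.18 with limma SE 0.896 and adjusted p = 0.00738). All tumors lay above both OE normal lungs, and OE normal lung 1 lay above OE normal lung 2 and both wild type lungs for all 3 genes. Without OE normal lung 2 the limma adjusted p was 0.0537, 0.0651 and 0.0611 for Dlk1, Meg3 and Rian. At other loci 3 were higher and 7 lower of 29 tested (0 and 3 stable). Ndn was at 0.606, 0.212 and 0.239 FPKM in tumors against 6.34 and 5.77 FPKM (log2 difference -2.40 with limma SE 0.188 and adjusted p = 0.00169), and Snrpn at 0.697, 0.183 and 0.313 FPKM in tumors against 6.31 and 6.34 FPKM (log2 difference -2.41 with limma SE 0.202 and adjusted p = 0.00197). Peg13 had a log2 difference of -2.15. Where such genes overlap others, reads cannot be assigned by strand, since the sources used here do not say whether the counting used strand.

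Cell cycle inhibitors and death regulators were mixed. INK4 and CIP inhibitors with p53 targets were 5 higher and 8 lower of 33 (2 and 3 stable). Cdkn2a, which encodes p16INK4A and p19ARF and is a known Polycomb target, was at 34.3, 31.8 and 31.3 FPKM in tumors 1, 2 and 3 and 2.30 and 4.05 FPKM in OE normal lungs 1 and 2 (log2 difference 3.04 with limma SE 0.217 and adjusted p = 0.00161), and at 2.07 and 3.87 FPKM in wild type lung. Every tumor lay above all 4 lung libraries. Gadd45a, a stress-induced gene, had a log2 difference of 1.29. BCL2 family genes and caspases were 7 higher and 8 lower of 36 (3 and 0 stable). Bcl2l15 was at 15.1, 22.3 and 34.6 FPKM in tumors against 0.276 and 0.387 FPKM (log2 difference 4.16 with limma SE 0.354 and adjusted p = 0.00197). Bcl2l1, which encodes the survival protein Bcl-xL, and Bmf, which encodes a death-promoting BH3 protein, were both higher, by log2 differences of 1.45 and 1.51. Pmaip1, encoding the BH3 protein Noxa, and the death receptor gene Fas were lower, with log2 differences of -1.89 and -1.38.

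The tumors also differed from each other, described here by library with no test, since 1 tumor is not a group. In tumor 1 alone 8 classes held as higher (among them aquaporins and connexins, glycosyltransferases, EGF family genes and myeloid receptors) and 6 as lower. In tumors 2 and 3 without tumor 1 there were 4 higher classes (glycolysis, fatty acid synthesis, glutathione and NRF2 targets, and glutathione, sulfo- and glucuronosyltransferases) and 5 lower ones (elastic fibres, integrins, Wnt genes, G protein regulators and pattern receptors). Glycolysis genes were mixed by member, with 5 called higher and 6 lower of 27. Past 2-fold they were 5 upward and 6 downward in tumor 2, and 7 and 5 in tumor 3. Conjugating transferases and myeloid receptors held in opposite directions in tumors 1 and 3. The former had medians of -0.55, 0.76 and 0.92 in tumors 1, 2 and 3, and the latter of 0.20, -1.03 and -0.94. The summed macrophage markers (2066, 713 and 1336 FPKM) were also highest in tumor 1. In tumor 3 that sum lay above both OE normal lungs (581 and 719 FPKM), while the myeloid receptors held as lower there.

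Clu, encoding the secreted chaperone clusterin, was at 3900.1, 223 and 191 FPKM in tumors 1, 2 and 3 and 122.97 and 111 FPKM in OE normal lungs 1 and 2. Mia was at 148, 5.53 and 2.87 FPKM in tumors against 3.07 and 2.56 FPKM and Gkn3 at 39.02, 0.200 and 0 FPKM in tumors against 1.43 and 1.58 FPKM. Tumor 1 was the high library for all 3. H2-Ea-ps, a class II pseudogene outside the tested set and chosen after its values were seen, was at 397, 0.813 and 0.468 FPKM in tumors against 0.125 and 0.0801 FPKM. The matrix gene Dcn, encoding decorin, was at 163.97, 22.4 and 15.3 FPKM in tumors against 100.5 and 102 FPKM, and Mgp, which blocks matrix calcification, at 1009.7, 120.2 and 309.5 FPKM in tumors against 1287 and 924 FPKM, both higher in tumor 1 than in tumors 2 and 3.

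Bpifa1, an airway secretory protein gene, was at 28.7, 12907 and 15754 FPKM in tumors 1, 2 and 3 and 449 and 216 FPKM in OE normal lungs 1 and 2, so tumor 1 lay below and tumors 2 and 3 above the OE normal lungs. Chia, an acidic chitinase gene, was at 0.553, 87.6 and 230.0 FPKM in tumors against 36.4 and 29.5 FPKM, and S100g, a calcium-binding protein gene, at 17.2, 224 and 464 FPKM in tumors against 67.04 and 56.4 FPKM. Both followed the same order. The cytochrome oxidase subunit gene Cox6a2 was at 3.38, 63.4 and 74.4 FPKM in tumors against 29.7 and 58.7 FPKM, Clic3 at 18.1, 155 and 154 FPKM in tumors against 144 and 91.5 FPKM and the fatty acid transporter gene Cd36 at 46.9, 255 and 241 FPKM in tumors against 353 and 272 FPKM, and tumor 1 was the low library for each. Retnla, a secreted resistin-like protein gene, was at 47.3, 93.2 and 325 FPKM in tumors against 72.5 and 60.04 FPKM, highest in tumor 3. Tumor 1 was also the male library with the shallowest estimated depth among the tumors, and what part sex or depth has in these differences was not tested.

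**Figure D5:**
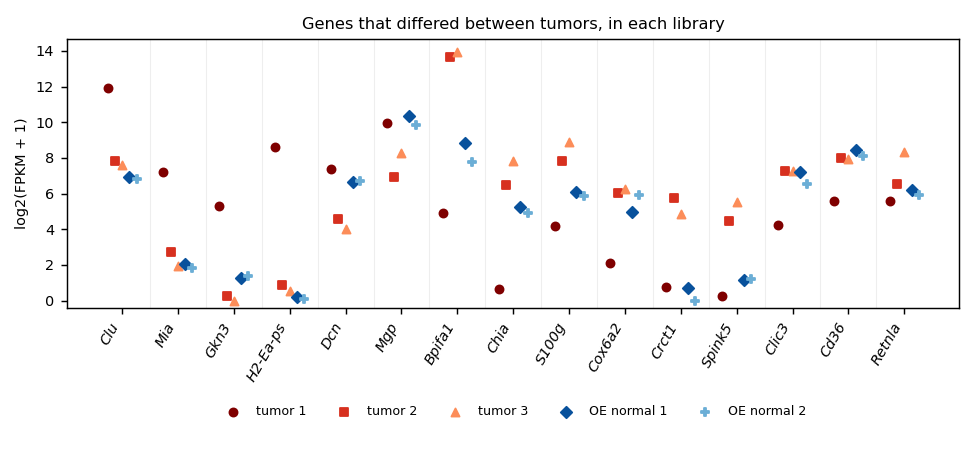
Log2(FPKM + 1) of genes that set 1 or more tumors apart, in each of the 3 tumors and 2 OE normal lungs. Clu, Mia, Gkn3 and H2-Ea-ps are high in tumor 1, and Bpifa1, Chia, S100g and Spink5 are high in tumors 2 and 3.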

How the data were processed

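RNA-seq of total RNA was read from 1 deposited table per library. Its values are FPKM made by the authors, and the submitters' processing notes name TopHat, TopHat2, Cufflinks 2.0.0 and mouse build mm9, without parameters, and the sources used here do not say how strand, multi-mapped reads or the transgene were handled. Each table had 22474 rows, and 27 rows whose gene symbol had become a date were left out. No counts were used, so the depth is given only as the relative step size of low FPKM values.

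Values were analysed as log2(FPKM + 1), with a pseudocount of 1, over genes at 1 FPKM or more in 2 of the 5 libraries, with limma 3.58.1 in R 4.3.3 (moderated test with a mean-variance trend, 3 residual degrees of freedom, Benjamini-Hochberg adjustment over all 13848 genes). A log2(value + pseudocount) difference understates the change of low genes. Groups followed the sample titles. The fit was tested on simulated data. Medians, counts and figures used Python 3.11.15 with pandas 2.3.3 and matplotlib 3.10.9. The comparison, the 118 classes, the 17 marker lists and the tests were chosen with earlier results of these data known.

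Genes were named by a rule: for each class, up to 3 called members at each end of the log2 difference whose groups do not overlap and whose higher mean is at least 5 FPKM; over all genes, the 10 highest and 10 lowest; for each tumor, 6 genes in each direction that set it apart at 20 FPKM or more; and Ezh2. The text names a subset, plus antigen-presentation, interferon and library-check genes chosen after their values were seen. Promoter letters came from RefSeq windows of 300 bases on GRCm38.p6 and were used for no test. Alternatives changed the pseudocount (0.1), the filter (none or 5 FPKM), the scaling, small RNA genes, the libraries in the fit, the trend and the replicate block, or left out each library in turn. Some genes of the classes are counted but not reported here by name.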

Additional observations from a re-analysis of the deposited data

How the results depend on the processing

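The count of genes higher in tumors, 1218, was 757 after rescaling to TPM, 2286 after quantile normalization, 1839 with all 7 libraries in the fit and 493 with the replicate number as a block. The count of lower genes, 2860, was 1782 with a filter of 5 FPKM (10321 genes tested) and 1839 with the replicate block. Leaving out 1 library at a time gave 230 to 3556 higher and 1411 to 5484 lower genes, fewest without OE normal lung 2 and most without tumor 1. The pseudocount of 0.1, no filter, median-of-ratios scaling, no small RNA genes and no trend kept both counts within 1.5 times. With 1 OE normal lung left out, the remaining one is assumed to vary like the tumors. The replicate numbers pair only 2 tumors with 2 OE normal lungs, and these same-numbered libraries also had the same sex by Xist and Eif2s3y. Their deviations correlated at -0.032 and -0.027. With 2 OE normal lungs the deviations of one mirror those of the other, so these correlations cannot show whether the libraries were paired. Of 119 genes checked by name, 118 were called, 106 of them kept their call under every alternative run, and 0 changed sign. Each of the 118 kept its call under the block. Most were picked for large differences between groups that do not overlap, so their steadiness does not carry over to other calls. Of all called genes a smaller share kept its call in the fits that each left out 1 library, as counted above. The design's 3 residual degrees of freedom and the unknown depth limit what can be called among genes of low FPKM.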
